A study of Mus musculus with 6 samples.

Results

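The 10 genes described here encode amino acid transporters of the plasma membrane. They were chosen by name, as the rows of the deposited gene count table whose Ensembl mouse gene IDs map to Slc1a4, Slc1a5, Slc3a2, Slc7a1, Slc7a5, Slc7a6, Slc7a11, Slc38a1, Slc38a2 and Slc38a3. All 10 were found among the 52856 rows of the table. RNA-seq was done on CD4+ T cells from the spleen of miPEP31-/- mice (miPEP31 KO, 3 libraries) and of wild type mice (WT, 3 libraries), all C57BL/6 and 8 weeks old. Both groups were activated with anti-CD3/28 for 48 hours, so no resting cells were measured. The peptide miPEP31 is translated from the primary miR-31 transcript. The labels do not say how the miPEP31 allele was made or whether each library came from a separate mouse, so p-values measure only the spread between these libraries.

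T cells that have been stimulated through their antigen receptor and CD28 take up far more amino acids than resting cells, for protein synthesis and for signalling through mTORC1. The CD98 heavy chain, encoded by Slc3a2, pairs with a light chain that forms the transport channel. Slc7a5 encodes the light chain LAT1, which imports leucine and other large neutral amino acids, Slc7a6 encodes y+LAT2, which exchanges cationic for neutral amino acids, and Slc7a11 encodes xCT, which imports cystine in exchange for glutamate. The other transporters work without CD98. Slc7a1 encodes CAT1, an importer of arginine and lysine, Slc1a5 and Slc1a4 encode the neutral amino acid exchangers ASCT2 and ASCT1, and Slc38a1, Slc38a2 and Slc38a3 encode sodium-coupled carriers of glutamine and related amino acids.

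Library totals ranged from 22865487 to 26295776 counts, and the lowest library of each group stood at 22865487 in the KO and 23398486 in WT. Counts were scaled to library size by TMM and are given as counts per 1000000 (CPM). Mir31 itself was at 0 counts throughout and gives no check of the genotypes. The cell type of the labels was checked on markers. All 9 T cell markers were detected, with a summed level of 1840 to 2050 CPM in the KO libraries and 2390 to 2490 CPM in WT. Cd4 stood at 295, 311 and 301 CPM in the KO and at 498, 450 and 421 CPM in WT. The 2 CD8 T cell markers summed to 15.9 to 36.9 CPM in the KO and 12.5 to 15.8 CPM in WT, and the 5 B cell markers to 56.7 to 103 CPM in the KO and 50.8 to 75.8 CPM in WT. The 3 NK cell markers summed to 10.3 to 21.8 CPM in the KO and 4.96 to 7.45 CPM in WT, nearly all of it Eomes, a gene that T cells also use. Without Eomes these sums were 0.387 to 0.633 CPM in the KO and 0.348 to 1.27 CPM in WT. The 6 dendritic cell markers summed to 12.0 to 13.1 CPM in the KO and 6.25 to 7.58 CPM in WT, with Clec9a at 0. Zbtb46 made up most of that sum, which without it was 2.24 to 4.77 CPM in the KO and 1.70 to 3.13 CPM in WT. The 6 macrophage markers summed to 2.98 to 6.11 CPM in the KO and 4.74 to 8.67 CPM in WT, with Adgre1 at 0. The 4 neutrophil markers summed to 0 to 0.186 CPM in the KO and 0.76 to 1.39 CPM in WT, with S100a8, S100a9 and Elane at 0, and the 6 erythroid markers to 0.474 to 0.559 CPM in the KO and 0.887 to 1.82 CPM in WT. The part of any of these differences in the results below was not tested, and in bulk RNA fewer cells of a type and less RNA per cell cannot be told apart.

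Most of the transporter genes were higher in cells lacking miPEP31. Of the 10, 6 rose (Slc7a11, Slc1a4, Slc7a5, Slc3a2, Slc1a5 and Slc38a1), 1 fell (Slc38a3) and 3 did not pass the test (Slc7a1, Slc38a2 and Slc7a6), by the edgeR quasi-likelihood test at an adjusted p under 0.05. The same test called 25.1% of the 14387 genes tested higher in the KO and 22.2% lower, 47.3% in all. The median log2 fold change of the 10 was 0.35, beside 0.01 for all genes tested. KO and WT libraries did not overlap for 7 of the 10, as for 59.1% of all genes tested. The change was at least 2-fold for 3 of the 10, beside 15.4% of all genes tested. All 10 passed the filter on low counts, Slc38a3 through its WT libraries only. Without KO replicate 3 the count of rises was 8, with Slc7a1 and Slc38a2 added, and without any 1 of the other libraries it was 4, with Slc1a5 and Slc38a1 no longer called.

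**Figure D1:**
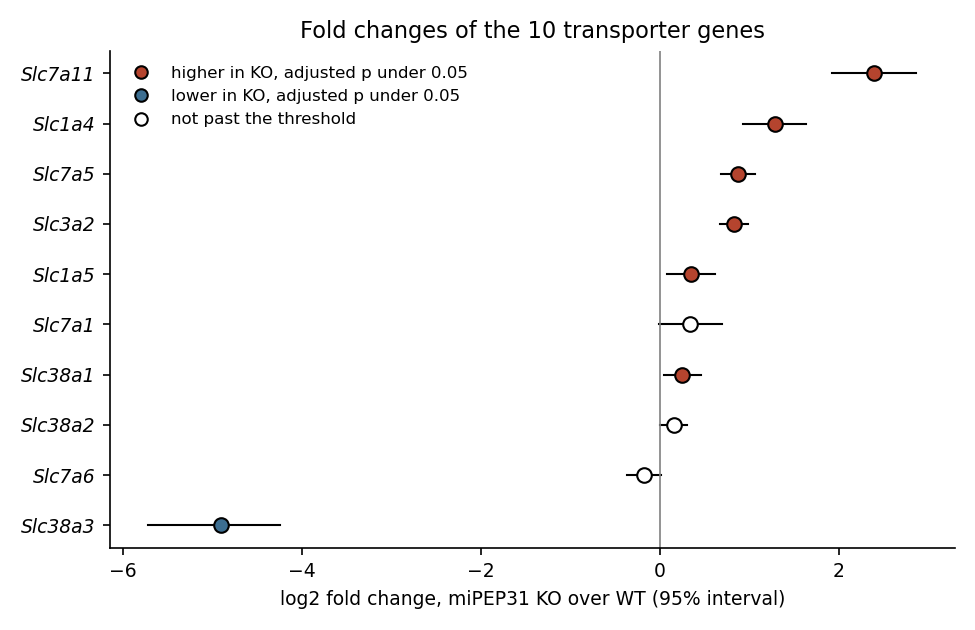
Log2 fold change (miPEP31 KO over WT) of each of the 10 transporter genes, ordered from the largest rise at the top to the largest fall at the bottom. Points are edgeR estimates, lines their 95% intervals, and open points did not pass an adjusted p of 0.05. Slc7a11 lies farthest to the right at 2.39 and Slc38a3 farthest to the left at -4.91.

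**Figure D2:**
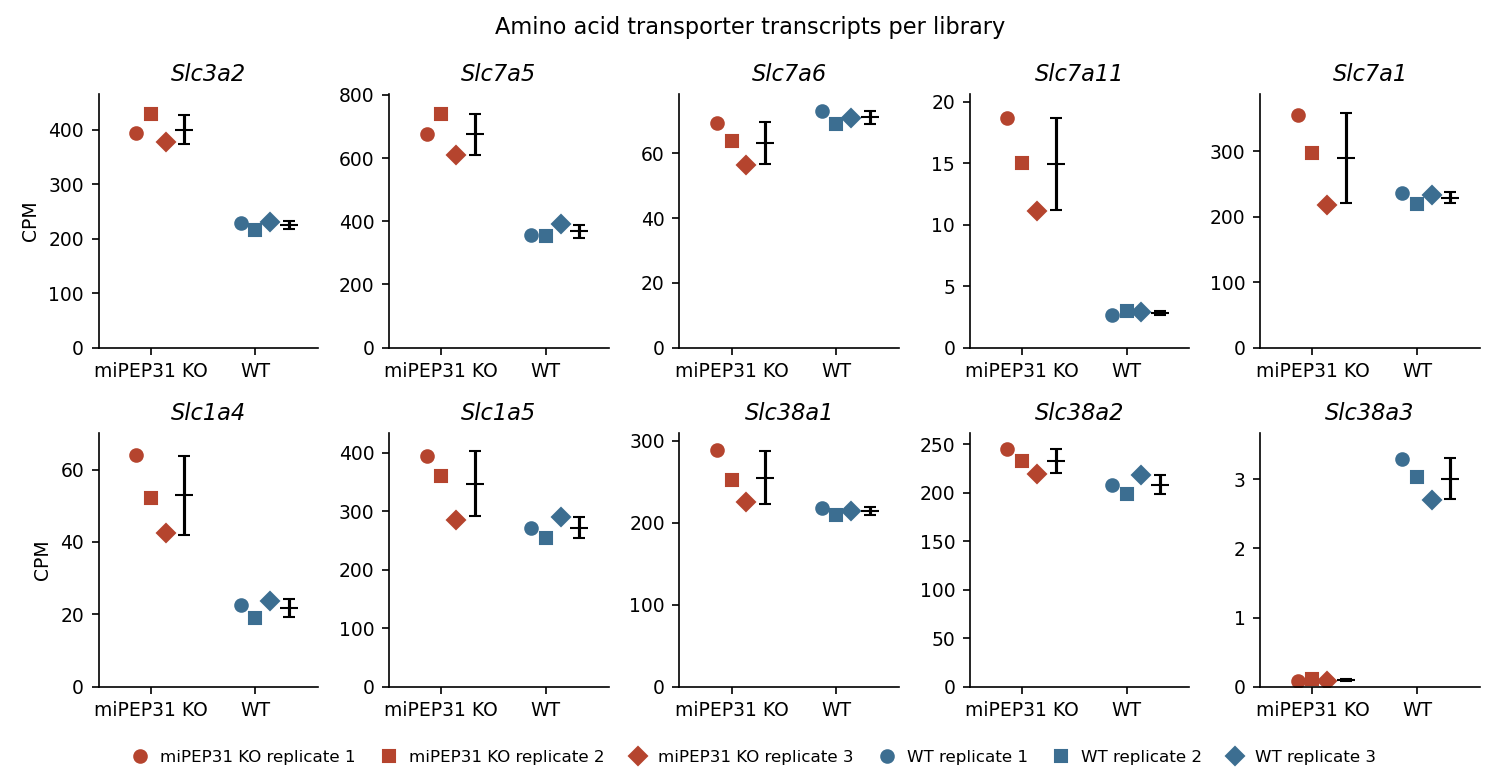
CPM of each transporter gene in each library (linear axes from 0, a separate scale per gene), with miPEP31 KO in red and WT in blue. Symbols mark the replicates and black bars the mean ± SD (n = 3 each). The KO points stand clear above the WT points for Slc3a2, Slc7a5, Slc7a11 and Slc1a4, and near 0 for Slc38a3.

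The heavy chain of CD98 and its main light chain rose together. Slc3a2 (ENSMUSG00000010095, chromosome 19, 8706882 to 8723369, GRCm38) had 394, 430 and 377 CPM in the KO libraries, against 230, 216 and 230 CPM in WT. Every KO library stood far above every WT library, and the KO libraries differed from each other by no more than 1.14-fold. The log2 fold change was 0.83 (SE 0.07, adjusted p = 6.49e-05), or 1.78-fold. Slc7a5 (ENSMUSG00000040010, chromosome 8, 121881150 to 121907694) had 677, 738 and 610 CPM in the KO and 357, 353 and 393 CPM in WT. It had the most counts of the 10 genes in every library, and its groups did not overlap. Its log2 fold change was 0.88 (SE 0.08, adjusted p = 1.28e-04), or 1.84-fold. Under all 16 other settings tried, Slc3a2 kept a log2 fold change between 0.77 and 0.87 and Slc7a5 between 0.80 and 0.93, all past the threshold.

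The light chain of cystine import rose the most. Slc7a11 (ENSMUSG00000027737, chromosome 3, 49892526 to 50443614) had 18.7, 15.0 and 11.1 CPM in the KO libraries, against 2.64, 3.00 and 2.87 CPM in WT. The lowest KO library was well above the highest WT library, although the KO libraries spread 1.68-fold, replicate 1 being the highest and replicate 3 the lowest. The rise was 5.25-fold (log2 fold change 2.39, SE 0.21, adjusted p = 8.43e-05). These levels rest on 433, 403 and 259 counts in the KO and 61, 71 and 66 counts in WT. Leaving out each library in turn gave log2 fold changes between 2.20 and 2.55.

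The other light chain among the 10 was not called. Slc7a6 (ENSMUSG00000031904, chromosome 8, 106168857 to 106198706) had 69.2, 63.7 and 56.4 CPM in the KO and 73.2, 69.1 and 71.0 CPM in WT. KO replicate 1 lay within the WT range and the other KO libraries below it. The log2 fold change of -0.17 had a 95% interval from -0.36 to 0.02 (SE 0.08, adjusted p = 0.118), and it stood at -0.25 without KO replicate 1 (adjusted p = 0.0191). With upper-quartile scaling Slc7a6 was also past the threshold, at -0.21 (adjusted p = 0.0498).

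Levels of different genes were compared per length, as TPM (counts per length, scaled to the same sum in each library) over the union of annotated exons. On that scale the ratio of Slc7a5 to Slc3a2 within a library was 1.63, 1.63 and 1.54 in the KO and 1.48, 1.56 and 1.62 in WT. These ratios overlapped, so both genes were higher in the KO in nearly the same proportion. The ratio of Slc7a6 to Slc3a2 was 0.136, 0.114 and 0.115 in the KO, against 0.246, 0.247 and 0.238 in WT, with no overlap. The ratio of Slc7a11 to Slc3a2 was 0.0120, 0.00885 and 0.00748 in the KO, against 0.00292, 0.00352 and 0.00317 in WT. The 3 light chains together stood at 1.78, 1.76 and 1.66 times the heavy chain in the KO and at 1.73, 1.81 and 1.86 times in WT, which overlap. These ratios of transcripts follow from the fold changes above and were not tested. Their level depends on the length taken. With the longest transcript, Slc7a5 over Slc3a2 was 1.37, 1.37 and 1.29 in the KO and 1.24, 1.31 and 1.36 in WT.

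**Figure D3:**
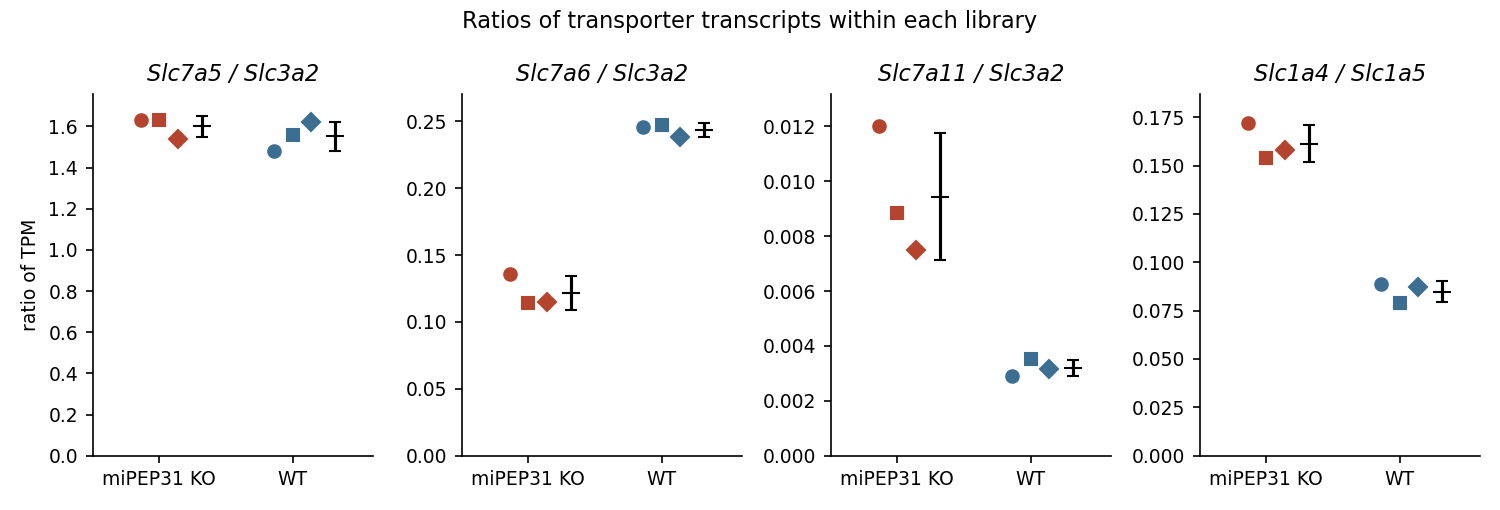
Ratio of the TPM of 2 genes within each library (linear axes from 0), for the CD98 light chains over the heavy chain Slc3a2 and for Slc1a4 over Slc1a5. Red symbols are miPEP31 KO and blue symbols WT (circle, square and diamond for replicates 1, 2 and 3), with black bars for the mean ± SD (n = 3 each). The groups overlap for Slc7a5 over Slc3a2, while Slc7a6 over Slc3a2 averages 0.122 in the KO and 0.244 in WT.

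Arginine import showed no call for its main carrier. Slc7a1 (ENSMUSG00000041313, chromosome 5, 148327410 to 148399904) had 355, 298 and 218 CPM in the KO libraries and 236, 219 and 233 CPM in WT. KO replicates 1 and 2 were above all WT libraries, but KO replicate 3 was below all of them. The log2 fold change was 0.34 with a 95% interval from -0.01 to 0.69 (SE 0.15, adjusted p = 0.101). Without KO replicate 3 it was 0.50, past the threshold (adjusted p = 8.19e-04), and the lowest value on leaving out a library was 0.17.

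Both neutral amino acid exchangers rose, the less abundant one by more. Slc1a4 (ENSMUSG00000020142, chromosome 11, 20302180 to 20332713) had 64.0, 52.2 and 42.4 CPM in the KO libraries and 22.6, 18.8 and 23.7 CPM in WT. Its groups were well apart, and the rise was 2.44-fold (log2 fold change 1.28, SE 0.15, adjusted p = 4.03e-04). Slc1a5 (ENSMUSG00000001918, chromosome 7, 16781340 to 16798274), a main glutamine carrier of activated T cells, had 394, 360 and 285 CPM in the KO and 271, 254 and 290 CPM in WT. KO replicate 3 lay within the WT range. The log2 fold change of Slc1a5 was 0.35 (SE 0.12, adjusted p = 0.0357). Its 95% interval of 0.09 to 0.62 did not reach that of Slc1a4, 0.93 to 1.64. The call of Slc1a5 held in 9 of the 16 other settings. It was lost without WT replicate 1 (adjusted p = 0.105), WT replicate 2 (0.131), WT replicate 3 (0.0628), KO replicate 1 (0.0713) or KO replicate 2 (0.115), and in these fits the log2 fold change was between 0.25 and 0.40. On the TPM scale Slc1a4 stood at 0.172, 0.154 and 0.158 of Slc1a5 in the KO, against 0.0886, 0.0788 and 0.0871 in WT. With the longest transcript as the length it stood at 0.116, 0.104 and 0.106 in the KO, against 0.0596, 0.053 and 0.0586 in WT.

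Small differences were measured for the sodium-coupled glutamine carriers of system A. Slc38a1 (ENSMUSG00000023169, chromosome 15, 96571418 to 96642913) had 289, 252 and 225 CPM in the KO and 218, 209 and 214 CPM in WT. The groups did not overlap, but KO replicate 3 was close to WT. Its log2 fold change was 0.25 (SE 0.09, adjusted p = 0.0481), and the call held in 6 of the 16 other settings. It was lost without WT replicate 1 (adjusted p = 0.106), WT replicate 2 (0.149), WT replicate 3 (0.121), KO replicate 1 (0.0736, with a log2 fold change of 0.15) or KO replicate 2 (0.110). Slc38a2 (ENSMUSG00000022462, chromosome 15, 96687392 to 96699730), a carrier that cells are known to raise on amino acid shortage, had 245, 233 and 220 CPM in the KO and 208, 199 and 218 CPM in WT. The groups came within a few CPM of each other. Its log2 fold change of 0.16 had a 95% interval from 0.01 to 0.31 and did not pass (SE 0.07, adjusted p = 0.0795). It passed with plain library sizes (0.20, adjusted p = 0.0291) and without KO replicate 3 (0.18, adjusted p = 0.0393).

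The system N carrier had almost no counts in the KO. Slc38a3 (ENSMUSG00000010064, chromosome 9, 107650634 to 107669530), which moves glutamine, histidine and asparagine and is best known from liver, kidney and brain, had 2, 3 and 2 counts in the KO libraries, against 76, 72 and 62 counts in WT. This came to 0.0863, 0.112 and 0.0860 CPM in the KO and 3.29, 3.04 and 2.70 CPM in WT. The summed counts, 7 in the KO and 210 in WT, put it 31.5-fold lower in the KO, with an exact 95% interval from 15.0 to 79.4 that covers counting error only. The fitted log2 fold change was -4.91 (SE 0.32, adjusted p = 2.46e-05). It kept its call in all 16 other settings, at -5.05 to -4.71. Its WT level was low, 1.74 ± 0.175 TPM (SD, n = 3), or 0.187% of the summed TPM of the 10 transporter genes.

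Per length, the same genes led in both genotypes. In the KO the order of mean TPM was Slc7a5 (574 ± 62.7), Slc3a2 (358 ± 29.3), Slc1a5 (262 ± 43.0), Slc38a2 (82.9 ± 4.72), Slc7a1 (79.4 ± 18.9), Slc38a1 (46.7 ± 5.84), Slc7a6 (43.5 ± 4.55), Slc1a4 (42.4 ± 8.64), Slc7a11 (3.38 ± 0.852) and Slc38a3 (0.0566 ± 0.00975; SD, n = 3). The KO libraries overlapped between Slc38a2 and Slc7a1 and among Slc38a1, Slc7a6 and Slc1a4, so those neighbours have no clear order. In WT the order was Slc7a5 (303 ± 17.6), Slc1a5 (199 ± 12.7), Slc3a2 (195 ± 6.85), Slc38a2 (72.0 ± 3.26), Slc7a1 (60.8 ± 2.34), Slc7a6 (47.5 ± 1.39), Slc38a1 (37.9 ± 0.835), Slc1a4 (16.9 ± 1.98), Slc38a3 (1.74 ± 0.175) and Slc7a11 (0.623 ± 0.0394). There Slc1a5 and Slc3a2 overlapped and the other neighbours did not. Slc7a5 made up 38.5% of the summed TPM of the 10 in the KO and 32.4% in WT, and Slc1a5 made up 17.5% in the KO and 21.3% in WT. The sum was 1553, 1611 and 1312 TPM in the KO libraries and 934, 892 and 977 TPM in WT. Taking the longest transcript as the length left these orders as they were except that Slc7a1 passed Slc38a2 in the KO and Slc38a1 passed Slc7a6 in WT. Slc38a1 then stood at 84.4 TPM in the KO and 68.4 TPM in WT. The overlaps also changed with this length. In WT Slc1a5 (210.2 to 238.9 TPM) was clear of Slc3a2 (178.3 to 189.7 TPM), while in the KO they overlapped. Slc38a1 in the KO overlapped Slc38a2 and no longer Slc7a6, and Slc38a2 in WT overlapped Slc7a1.

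The KO libraries were not alike. For all 8 genes with a log2 fold change above 0, KO replicate 3 was the KO library nearest the WT mean, and the highest KO library was replicate 1 for 6 and replicate 2 for 2. Across all genes called higher in the KO, replicate 3 was nearest the WT mean for 45.5%. The distance depended on the gene. Relative to the WT mean, log2 CPM in KO replicates 1, 2 and 3 was higher by 0.81, 0.93 and 0.74 for Slc3a2 and by 0.88, 1.01 and 0.73 for Slc7a5. For Slc7a1 it was 0.63 and 0.38 above in replicates 1 and 2 and at -0.07 in replicate 3, and for Slc1a5 it was 0.54, 0.41 and 0.07 above. For Slc38a1 it was 0.43, 0.24 and 0.07 above, and for Slc38a2 0.23, 0.16 and 0.08 above. For Slc7a11 it was 2.72, 2.4 and 1.97 above, and for Slc1a4, which works without CD98, 1.56, 1.27 and 0.97 above. KO replicate 3 thus kept most of the difference in Slc3a2, Slc7a5, Slc7a11 and Slc1a4. It was close to the WT mean or slightly below it for Slc7a1, Slc1a5, Slc38a1 and Slc38a2, of which Slc38a2 differed little in any KO library. The labels give no batch or other feature that sets this library apart. The markers did differ among the KO libraries. In KO replicates 1, 2 and 3 Cd8a stood at 7.2, 13.0 and 16.5 CPM and Cd8b1 at 8.67, 15.0 and 20.4 CPM. All 5 B cell markers were also highest in replicate 3, for example Cd79a at 10.2, 13.7 and 24.1 CPM. Eomes was lowest there, at 21.4, 15.3 and 9.89 CPM. Replicate 2 lay between the others for each of these markers. Their part in the pattern of the transporter genes was not tested.

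**Figure D4:**
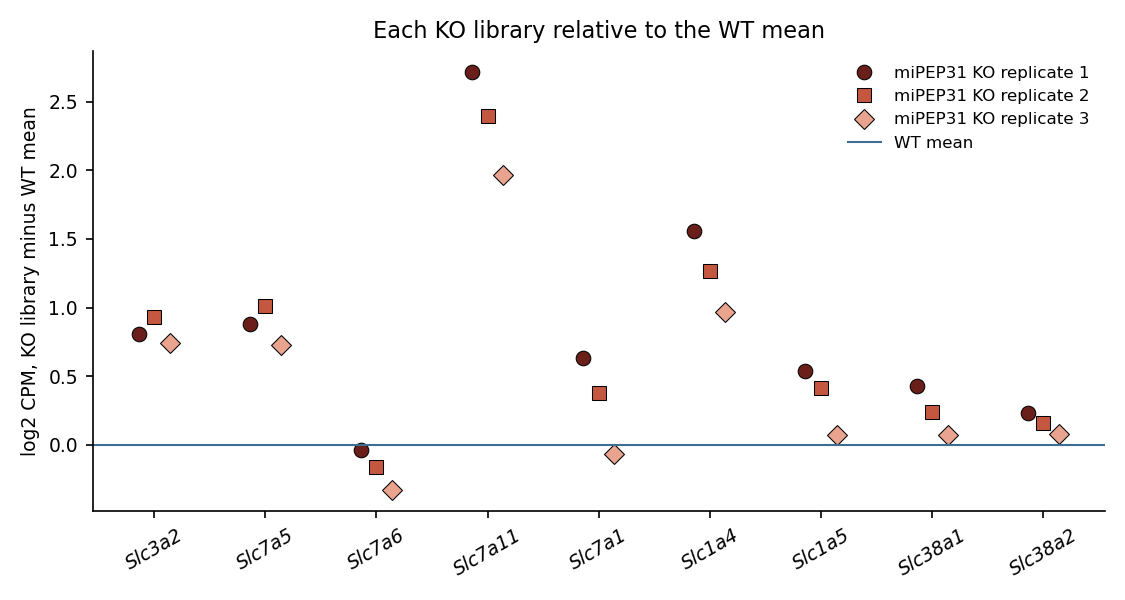
Log2 CPM of each miPEP31 KO library minus the log2 of the WT mean CPM (blue line at 0), for the transporter genes other than Slc38a3. Circles, squares and diamonds are KO replicates 1, 2 and 3. Replicate 3 is the lowest point for each of the 9 genes, at 0.74 for Slc3a2 but at -0.07 for Slc7a1.

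Promoter sequence was examined because several of these genes are known targets of ATF4, the transcription factor of the amino acid starvation response, which binds composite C/EBP-ATF elements together with C/EBP partners. RefSeq promoters on GRCm38.p6, from 250 bases before to 50 after an annotated start, were at hand for 6 of the 10 genes (Slc1a4, Slc3a2, Slc7a1, Slc7a6, Slc7a11 and Slc38a2). The composite motif TGATGNAAN was searched on both strands. It was found in 3.95% of all 32851 promoters. Among the 6 genes, which had 8 promoters, it was found in those of Slc7a11 and Slc1a4. Slc7a5, Slc1a5 and Slc38a1, which rose, and Slc38a3 could not be searched. A part of ATF4 in these rises was not tested. The Slc7a11 promoter held it at positions -66 to -58 and, facing the other way, at -48 to -40, and the Slc1a4 promoter held it once, at -5 to 4 across the start. The windows below run from -100 to 20 relative to the start, 5′ to 3′ on the minus strand on which each gene lies, with matches to the composite motif in capitals (those on the opposite strand read as its reverse complement). Slc3a2 is shown for comparison, as a gene that rose without a match in this window. Its start here lies inside the annotated gene (8706882 to 8723369), unlike those of Slc7a11 and Slc1a4, and the upstream end of the gene was not searched.
Slc7a11: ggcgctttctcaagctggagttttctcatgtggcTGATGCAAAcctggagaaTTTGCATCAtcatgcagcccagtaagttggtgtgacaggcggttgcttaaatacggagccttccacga
Slc1a4: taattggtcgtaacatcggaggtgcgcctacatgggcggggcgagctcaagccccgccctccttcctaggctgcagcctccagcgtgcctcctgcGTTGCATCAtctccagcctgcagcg
Slc3a2: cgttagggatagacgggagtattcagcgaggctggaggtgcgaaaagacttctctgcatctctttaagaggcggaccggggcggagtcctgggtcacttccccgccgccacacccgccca

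These windows lie at chr3:50443594-50443713, chr11:20332694-20332813 and chr19:8713878-8713997. The E-box CACGTG, a binding motif of MYC, was found in 7.15% of all promoters and in none of the 6 genes'. The core of the antioxidant response element bound by NRF2, TGACNNNGC, was in 12.4% of all promoters and in those of Slc7a1, Slc7a6 and Slc38a2. The core of the interferon-stimulated response element (GAAA, any 2 bases, and GAAA again) was in 3.44% of all promoters and in none of the 6 genes'. No match of one motif overlapped a match of another. A match describes the sequence and does not show binding, and binding sites outside these windows were not searched.

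The regulators themselves were then compared. Atf4 had 623, 556 and 486 CPM in the KO libraries and 315, 336 and 352 CPM in WT, with every KO library above WT, and rose by 0.73 on the log2 scale (SE 0.09, adjusted p = 5.48e-04). Myc, which drives transporter expression in activated T cells, had 246, 214 and 143 CPM in the KO and 270, 262 and 312 CPM in WT. It was lower in each KO library but did not pass (log2 fold change -0.48, SE 0.18, adjusted p = 0.0527), and it passed in 6 other settings, for example without KO replicate 1 (-0.66, adjusted p = 0.0287) and without KO replicate 3 (-0.30, adjusted p = 0.0216). Nfe2l2, the gene of NRF2, had 51.0, 49.0 and 38.3 CPM in the KO and 42.1, 41.6 and 43.9 CPM in WT. Its groups overlapped, with a log2 fold change of 0.12 (SE 0.11, adjusted p = 0.405), and it passed only without KO replicate 3 (0.22, adjusted p = 0.0270). Of the 12 regulators listed, 2 rose and 4 fell, near the 47.3% of all genes called (25.1% higher, 22.2% lower). Beside Atf4, Mycn, at a low level, rose by 1.41 (4.60 ± 2.89 CPM in the KO and 1.72 ± 0.559 CPM in WT; adjusted p = 0.0367), a call lost on leaving out any WT replicate or KO replicate 2 or 3 (adjusted p 0.0694 to 0.130), with a log2 fold change of 0.79 without KO replicate 3. The fallers were Hif1a (-0.36), Bach1 (-0.36), a repressor of NRF2 targets, and the MYC antagonists Mnt (-0.52) and Mxd4 (-0.88). Max, Mxd1, Trp53 and Epas1 did not pass, at -0.01, 0.12, 0.16 and 0.42, and Epas1 stood at -0.09 without KO replicate 3. The call of Hif1a was lost without WT replicate 2 (adjusted p = 0.0566), and that of Mxd4 without the low-count filter (adjusted p = 0.0626).

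Genes of the amino acid starvation response were mostly higher. Of 19 tested, 13 rose, 1 fell and 5 did not pass, beside 25.1% of all genes tested that rose, and their median log2 fold change was 0.49. Atf5 rose by 2.44 (SE 0.13), to 108 ± 12.2 CPM in the KO against 19.9 ± 3.07 CPM in WT, and Stc2 by 1.50 (SE 0.08), to 91.3 ± 3.42 CPM in the KO against 32.2 ± 3.01 CPM in WT (SD, n = 3 each). Chac1, which degrades glutathione, rose by 1.83 (SE 0.14) and Trib3, which restrains ATF4, by 1.39 (SE 0.12). Atf4 is a member of both of these lists. Ddit4 was the gene that fell, by 0.79 (SE 0.22), but leaving out WT replicate 1, 2 or 3, or KO replicate 2, gave 0 falls in this list, and leaving out KO replicate 3 gave 2.

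Other amino acid transporters were also more often higher than lower. Of 43 further transporter genes, 22 had too few counts to test, of which 5 were at 0 in all libraries and none exceeded 0.591 CPM in any. Of the 21 tested, 9 rose and 2 fell, beside 25.1% higher and 22.2% lower over all genes tested, with a median log2 fold change of 0.31. Slc7a3, a relative of Slc7a1 that also carries arginine and lysine, had 78.2, 63.9 and 54.5 CPM in the KO and 20.1, 15.4 and 15.8 CPM in WT and rose by 1.94 (SE 0.15, adjusted p = 6.02e-05). Its groups were far apart, and per length it came to 54.6 TPM in the KO and 13.8 TPM in WT, beside 79.4 TPM in the KO and 60.8 TPM in WT for Slc7a1. Among relatives of the glutamine carriers, Slc38a6 rose by 1.37 (SE 0.08; 140 ± 12.9 CPM in the KO and 54.0 ± 3.10 CPM in WT) and Slc38a7, which exports glutamine from lysosomes, by 1.20 (SE 0.10). Slc16a10, a carrier of aromatic amino acids, rose by 1.08 (SE 0.10). By mean TPM over all 6 libraries the most abundant of these genes were Slc6a6 (54.2 TPM in the KO and 67.0 TPM in WT), Slc38a10 (55.7 TPM in the KO and 57.4 TPM in WT) and Slc38a6 (56.5 TPM in the KO and 21.2 TPM in WT). In the KO alone these 3 and Slc7a3 lay close together. Slc6a6, the taurine transporter, fell by 0.35 (SE 0.07), while Slc38a10 did not pass (-0.09, SE 0.05, adjusted p = 0.217). Slc43a2, a leucine carrier that needs no CD98, was the other gene that fell, by 0.67, and without WT replicate 1 there was 1 fall in this list.

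**Figure D5:**
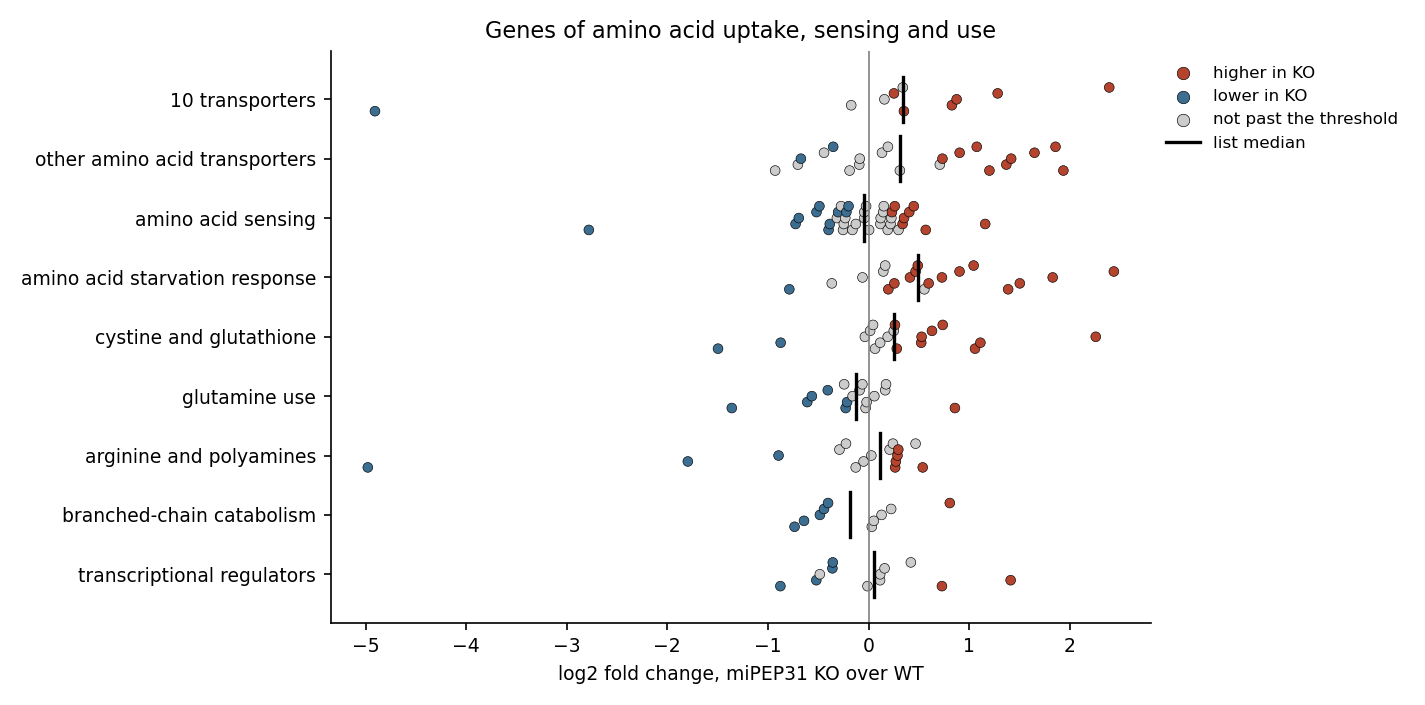
Log2 fold change (miPEP31 KO over WT) of every tested gene of the 10 transporters and of 8 related lists, with each list's median as a black line. Red points rose, blue points fell (edgeR adjusted p under 0.05) and grey points did not pass. Medians range from 0.49 for the starvation response to -0.18 for branched-chain catabolism.

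Of 37 tested genes that report amino acids to mTORC1, 8 rose and 10 fell, with a median of -0.04, so the counts were near the shares over all genes tested (25.1% higher, 22.2% lower). Sesn2, a leucine sensor, had 106, 106 and 84.6 CPM in the KO and 46.0, 42.5 and 44.1 CPM in WT and rose by 1.16 (SE 0.10, adjusted p = 7.51e-05). Its relatives Sesn1 and Sesn3 went the other way, falling by 0.30 (SE 0.09, adjusted p = 0.0234) and 0.49 (SE 0.09, adjusted p = 0.0031). Sesn3 was the more abundant, with a mean of 159 CPM in the KO and 222.9 CPM in WT. Castor1, an arginine sensor, had 6.69, 10.4 and 12.9 CPM in the KO and 64.8, 72.9 and 68.3 CPM in WT and fell by 2.78 (SE 0.20, adjusted p = 3.79e-05). Sesn2 and Castor1 both restrain mTORC1 when their amino acid is scarce, and their groups were far apart in opposite directions. Lamtor3, part of the lysosomal anchor of mTORC1, rose by 0.57 (SE 0.07) and Mlst8, a subunit of mTORC1, fell by 0.69 (SE 0.09). Without WT replicate 1, 5 of this list fell, and with plain library sizes 13 rose.

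Genes that use the imported amino acids were compared by substrate. For cystine and glutathione, 9 of 18 tested rose and 2 fell, beside 25.1% higher and 22.2% lower over all genes, with a median of 0.26. Srxn1, which restores peroxiredoxins, rose by 2.26 (SE 0.17; 11.7 ± 0.960 CPM in the KO and 2.44 ± 0.491 CPM in WT), Chac2 by 1.11 (SE 0.14), the haem oxygenase gene Hmox1 by 0.74 (SE 0.11) and the glutathione peroxidase gene Gpx1 by 0.53 (SE 0.07). On leaving out either WT replicate 2 or 3, or KO replicate 1 or 2, 1 gene of this list fell. For glutamine, 1 of 16 tested rose and 6 fell, with a median of -0.12, and the number called was near the 47.3% of all genes (25.1% higher, 22.2% lower). The glutaminase gene Gls2 fell by 1.36 (SE 0.15), Glud1, whose enzyme turns glutamate into a Krebs cycle substrate, by 0.56 (SE 0.06) and Gmps, a glutamine-consuming enzyme of purine synthesis, by 0.41 (SE 0.07). The gene that rose was the alanine aminotransferase Gpt2, by 0.86 (SE 0.13).

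For arginine and polyamines, 5 of 16 tested rose and 3 fell, with a median of 0.12, near the all-gene shares of 25.1% higher and 22.2% lower. Dhps, which makes deoxyhypusine from spermidine, rose by 0.54 (SE 0.08) and Paox, which oxidises polyamines, fell by 0.89 (SE 0.09). Nos2 fell by 1.80 (SE 0.39), to 3.80, 4.62 and 5.72 CPM in the KO, against widely spread WT libraries at 27.1, 12.8 and 9.18 CPM. Its call was lost without KO replicate 1 (adjusted p = 0.0678), as it was with no filter on low counts (adjusted p = 0.0744). Nags, which makes N-acetylglutamate, fell by 4.98 (SE 0.55), to 0, 0.0744 and 0.129 CPM in the KO against 2.43, 2.66 and 1.83 CPM in WT. With so few counts in the KO its fitted value depends on single libraries, at -4.46 without KO replicate 1 and -5.69 without KO replicate 3, and is no exact fold. On leaving out either WT replicate 1 or 2, or KO replicate 2, 3 genes of this list rose. For the catabolism of branched-chain amino acids, the group to which leucine belongs, 1 of 10 rose and 5 fell, beside 25.1% higher and 22.2% lower over all genes, with a median of -0.18. Ppm1k, the phosphatase that activates the branched-chain dehydrogenase, rose by 0.81 (SE 0.10), and its opposing kinase Bckdk fell by 0.44 (SE 0.07). The aminotransferase gene Bcat2 fell by 0.40 (SE 0.06) and Mccc2 by 0.73 (SE 0.12). Without KO replicate 3, 2 genes of this list rose.

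The genes whose pattern over the 6 libraries was most like that of Slc7a11, by the root mean square difference of log2 CPM relative to the WT mean, were Eif2ak2 (0.131), Gbp7 (0.138) and Gvin1 (0.146). Eif2ak2 had 204, 171 and 151 CPM in the KO and 34.7, 32.9 and 32.1 CPM in WT, with the KO libraries far above WT. Most like Slc38a3 were Cdh23 (0.188), Igfbp4 (0.283) and Tnip3 (0.310), of which Igfbp4 had 10.4, 12.7 and 11.6 CPM in the KO and 145, 166 and 164 CPM in WT. The log2 CPM used here carried a prior count of 2, which shrinks the fall of Slc38a3, at 2, 3 and 2 counts in the KO. Its fitted log2 fold change was -4.906, beside -3.945 for Cdh23, -3.773 for Igfbp4 and -4.312 for Tnip3. These genes are therefore less like Slc38a3 than the small differences show. Gbp7 and Gvin1 belong to families with near-identical copies, so their counts are uncertain.

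Because miPEP31 comes from the transcript of miR-31, seed matches of miR-31-5p were looked up in the longest annotated 3′ UTR of each gene. The mature miRNA is shown first with its seed (bases 2 to 8) in capitals, followed by the matching stretches with TCTTGCC in capitals.
miR-31-5p: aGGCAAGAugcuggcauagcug
Slc1a4: gtaacttgccTCTTGCCtacttcactg
Slc38a1: gtgtgtccccTCTTGCCtcagctgggg

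The miRNA lies at chr4:88910614-88910635 (GRCm38.p6, minus strand). The printed stretches of 27 bases around the matches lie at chr11:20303304-20303330 and chr15:96575506-96575532 (GRCm38, minus strand). Slc1a4 and Slc38a1, both higher in the KO, held 1 match each, and the other 8 transporter genes held none, beside 11.2% of 21039 genes with a 3′ UTR that held at least 1. Slc7a11 and Slc38a3, with the largest changes, held none.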

How the data were processed

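Estimated counts per gene were deposited by the authors for the 6 libraries. Per the submitters' processing notes, Bowtie 0.12.2 and the genome build mm8 were used, without a stated step. Counter, annotation and strand setting: not given in the sources used here. IDs were matched to GENCODE M21 (GRCm38), which named 51633 of 51912 Ensembl rows; the other 944 rows, which held 0.903% to 1.56% of the counts, were kept in all fits. No exon of another annotated gene overlaps those of the 10 transporter genes. Estimated counts, of which 72.2% of those above 0 were whole as deposited, were rounded.

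Genes were kept with filterByExpr (minimum count 10), leaving 14387 with 99.9% of counts. The 2 groups were compared with the edgeR 4.0.16 quasi-likelihood test (TMM, robust, no covariate), with Benjamini-Hochberg adjustment over all genes tested. SE is the unshrunk log2 fold change over the root of F. TPM used union exon lengths. limma 3.58.1 and DESeq2 1.42.0 (R 4.3.3) served as alternatives. The scripts were tested on simulated data. Members and lists were chosen with earlier results of these data known. Besides the 10 genes, the text names up to 4 called genes per list with a mean of at least 1 CPM by smallest p, all tested regulators, the 3 most abundant other transporters, and the 3 genes most alike in pattern to the largest rise and fall. Ddit4, Slc43a2, Sesn1, Sesn3, Bckdha, Bckdhb and Dbt were added after their values were seen. Slc66a1 is named Pqlc2 in M21. The authors' other table, of 30 genes, holds none of the 10 and was not used.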

Additional observations from a re-analysis of the deposited data

How the results depend on the processing

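Across 16 other settings, 138 of 160 values of the 10 transporter genes kept their direction and side of the threshold, 17 lost a call, 5 gained one and 0 changed direction. Rises among the 10 numbered 4 to 8 without 1 library and 4 to 7 otherwise; falls numbered 2 with upper-quartile scaling and 1 to 2 without 1 library. With a replicate block 4 rose; Slc1a5 (adjusted p = 0.0718) and Slc38a1 (0.0673) then lost their calls. Same-numbered libraries did not deviate together (correlations 0.001, -0.007 and -0.016), and each deviated most like a library of another number in the other group. This shows no sign of pairing by number, but it cannot exclude a weak effect of pairs. Under the block 1 cystine and glutathione gene fell and 3 arginine and polyamine genes rose. Plain library sizes gave 13 rises among the sensors and 2 in branched-chain catabolism. Without the low-count filter 0 starvation response genes fell and 1 regulator rose, as 1 did with limma-voom. Without 1 library, the ranges were 1 to 2 falls among other transporters, 5 to 12 falls among sensors, 0 to 2 falls in the starvation response, 1 to 2 falls for cystine and glutathione, 3 to 7 rises for arginine and polyamines, 1 to 2 rises in branched-chain catabolism and 1 to 2 rises among regulators. Max changed sign with plain library sizes (0.04) and stood between -0.12 and 0.07 without 1 library, and Epas1 between -0.09 and 0.71. The cause of these shifts was not tested. The number of all genes called was 5142 to 7233 without 1 library, against 6806. Slc38a3 rests on 2 to 3 counts per KO library, so its KO level is known only within counting error.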
